A study of Mus musculus with 4 samples.

Results

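Of the signals by which gut epithelium attracts and keeps lymphocytes and myeloid cells, 9 genes were followed: the chemokine genes Ccl25, Ccl28, Ccl20, Ccl6, Cxcl16 and Cx3cl1 and the cytokine genes Il18, Il15 and Tslp. They were chosen by name, and every probe set that the platform annotation names for one of them alone was taken, which gave 17 of the 45037 probe sets of the array. Of these, 14 probe sets of 8 genes passed the filter on dim signals, while the only probe set of Tslp and 2 of 4 of Cx3cl1 did not. Total RNA was taken from epithelial cells of the small intestine of 10-week-old, healthy adult C57BL/6J mice that were kept free of specific pathogens. The study compared mice without AP-1B, the epithelial form of a clathrin adaptor that sorts proteins to the basolateral membrane, with heterozygous mice: 2 arrays were labelled AP-1B+/- and 2 AP-1B-/-. Wild-type mice were not analysed here, so both groups carry at least 1 altered allele, and the labels say neither how the allele was made nor whether an array held 1 animal or a pool. The p-values therefore measure the spread between these arrays. Within each label the 2 arrays differed in sex by the markers given below, so this spread is not technical alone. How much of it is technical is not known.

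Chemokines are small secreted or membrane-held proteins that bind G protein-coupled receptors on leukocytes and direct their movement. In the small intestine, CCL25 recruits T cells and IgA plasmablasts that carry CCR9, CCL28 acts on CCR10 and CCR3, and CCL20 draws CCR6-bearing cells towards the epithelium over lymphoid follicles. CXCL16 and CX3CL1 are made as transmembrane proteins, which are shed by the metalloproteases ADAM10 and ADAM17, and IL-15 is shown on the cell surface by IL-15 receptor alpha to intraepithelial lymphocytes that bear IL-2 receptor beta. IL-18 is made as a precursor and cut by caspase-1, and TSLP acts through CRLF2 and IL-7 receptor alpha.

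Promoters of 6 of the 9 genes were taken from RefSeq sequence of build GRCm38.p6. The chromosome of Tslp was left out of the selection, and Cxcl16 and Il15 had no entry. Of the promoters taken, 3 are shown because they represent a constitutive, an inducible and a membrane-bound chemokine whose signals varied differently over the arrays. Each is the 250 bases before the annotated start on the plus strand, chr8:4349338-4349587 for the second of 2 starts of Ccl25, chr1:83116516-83116765 for Ccl20 and chr8:94771930-94772179 for Cx3cl1, printed 5′ to 3′. Capitals mark TATAAA, which in some promoters positions the transcription machinery, the NF-kB consensus, and the short core of sites for the intestinal factor CDX2, TTTAT. All were searched on both strands. TATAAA and TTTAT can overlap, and do so at the end of the Ccl25 and Cx3cl1 windows.
Ccl25: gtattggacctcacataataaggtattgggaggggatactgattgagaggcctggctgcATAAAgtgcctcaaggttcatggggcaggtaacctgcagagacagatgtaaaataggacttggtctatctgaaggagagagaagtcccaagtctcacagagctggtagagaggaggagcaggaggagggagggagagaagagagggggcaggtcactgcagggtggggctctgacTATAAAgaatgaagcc
Ccl20: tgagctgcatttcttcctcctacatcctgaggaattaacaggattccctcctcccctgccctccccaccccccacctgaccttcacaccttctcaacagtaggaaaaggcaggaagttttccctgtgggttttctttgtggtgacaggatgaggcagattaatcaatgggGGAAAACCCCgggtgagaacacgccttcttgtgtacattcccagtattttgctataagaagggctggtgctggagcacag
Cx3cl1: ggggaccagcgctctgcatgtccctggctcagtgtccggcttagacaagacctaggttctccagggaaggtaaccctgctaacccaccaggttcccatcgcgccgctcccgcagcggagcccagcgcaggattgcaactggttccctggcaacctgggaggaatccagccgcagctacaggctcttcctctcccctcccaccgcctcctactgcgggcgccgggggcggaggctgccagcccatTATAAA
The Ccl25 window held TATAAA with its first base 16 bases before the start and TTTAT on the minus strand 191 and 15 bases before it, and the Cx3cl1 window held TATAAA 6 bases before the start. The Ccl20 window held 1 match to the NF-kB consensus, beginning 80 bases before the start, and neither of the other motifs. Among 32851 promoter windows of the same length, TATAAA was present in 12.4%, TTTAT in 37.3% and the NF-kB consensus in 7.25%. The windows of Ccl28, Ccl6, Il18 and the first start of Ccl25 held no match to the NF-kB consensus. Of these 4, the Il18 window alone held TATAAA and TTTAT. A match is a run of letters and was not tested as a binding site. Whether TATAAA at these distances from the annotated start has a role in transcription was not tested.

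Signals are given as multiples of the array median, which lay between 0.996 and 0.998 on every array. The upper tails differed, with a 75th percentile of 5.54 and 5.57 for heterozygous 2 and knockout 1 but of 4.13 and 4.27 for heterozygous 1 and knockout 2. Values after quantile normalization, which gives the arrays one common distribution, are therefore quoted beside many of the orders that they alter, but not all. An order given without them is as deposited and can change after that normalization, as that of Casp1 below does. The signal of Ap1m2, which encodes the mu subunit of AP-1B, was 2.49 and 22.3 on knockout 1 and 2, and 19.9 and 4.33 on heterozygous 1 and 2. Heterozygous 2 and knockout 2 thus had Ap1m2 signals opposite to their labels, and each direction by genotype below is by label, with that reserve. A probe set outside the deleted part would check nothing, and the deleted part is not stated. Both replicate 1 arrays had high Y-linked Eif2s3y (12.1 and 24.1) and both replicate 2 arrays high Xist (30.3 and 60.1), so the replicate numbers divide the arrays by sex. All 12 epithelial markers checked were measured, with Krt8 between 382 and 601 and Krt20 between 288 and 431.

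**Figure D1:**
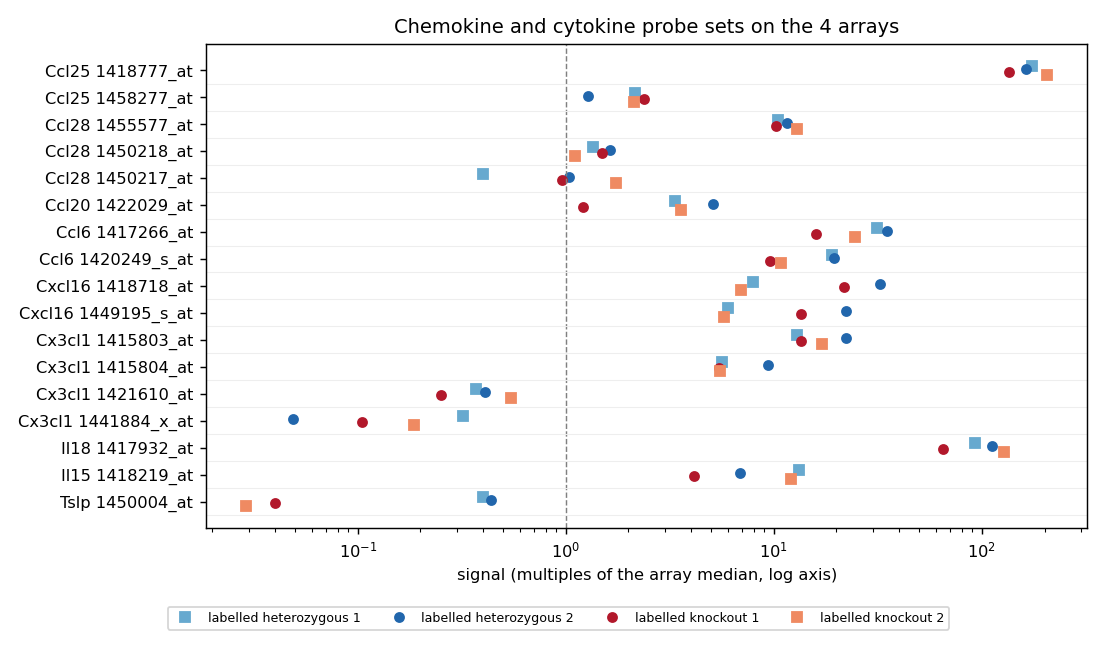
Signal of all 17 probe sets of the 9 genes on each array, on a log axis in multiples of the array median (dashed line at 1). Symbols are single arrays by label, and the probe set of Tslp and 2 of Cx3cl1 lie below the median on all 4 arrays.

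None of the 14 probe sets passed the test between the labelled genotypes by limma, where 0% of all 22519 kept probe sets passed in either direction. Their unadjusted p-values ran from 0.115 to 0.976 by limma (adjusted p = 0.9999 for each), and 0 of 14 were under 0.05, against 0.755% of all kept probe sets. The standard errors of their log2 differences, 0.44 to 0.74, left room for sizeable changes in either direction, so the lack of calls does not show equal levels. The log2 difference, knockout minus heterozygous by label, was below 0 at 11 of 14 probe sets, or 7 of 8 genes by the probe set of highest mean, with a median of −0.27 over probe sets. Over all kept probe sets 49.3% were below 0 and the median was 0.0055. Several marker lists leaned as far by label, taking 1 probe set per gene. Lower were 11 of 11 kept genes of absorptive enterocytes, 13 of 14 of T cells and intraepithelial lymphocytes and 11 of 14 of macrophages and dendritic cells, while 11 of 11 proliferation genes were higher, against 49.5% lower among all gene representatives. None of these genes passed by limma, and their part in the member differences was not tested. The labelled groups did not overlap at 3 of the 14, both probe sets of Ccl6 and 1 of Cx3cl1, each lower on the arrays labelled knockout, a pattern found at 10.7% of all kept probe sets. None was higher on both, a pattern found at 6.56%. The difference between the replicate 1 arrays and that between the replicate 2 arrays had opposite signs at 8 of 14, against 74.4% of all kept probe sets.

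**Figure D2:**
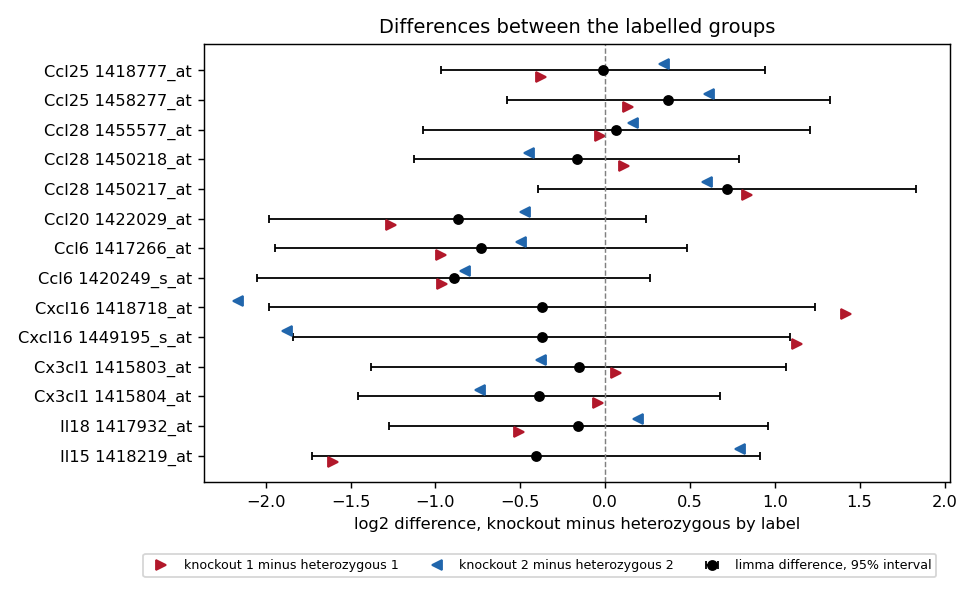
Log2 difference of the 14 kept probe sets, knockout minus heterozygous by label, with the 95% interval from limma (black) and the 2 differences between arrays of the same replicate number (triangles). Every interval spans 0, and the triangles of Cxcl16 lie on opposite sides of it.

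Ccl25 and Ccl28, the chemokines that bring CCR9 and CCR10 cells to mucosal surfaces, varied least as deposited when each gene is taken by its probe set of highest mean. The main probe set of Ccl25 (1418777_at) had a signal of 175 and 162 on heterozygous 1 and 2, and 135 and 206 on knockout 1 and 2. The arrays labelled knockout were thus the lowest and the highest of the 4, with heterozygous arrays between them, and the whole range was 1.53-fold (2.10-fold after quantile normalization). The group means were 168 ± 8.95 for the heterozygous and 171 ± 50.8 for the knockout label (SD, n = 2 each), which differed by −0.014 on the log2 scale (standard error 0.44), with a 95% interval from −0.97 to 0.94. A second Ccl25 probe set (1458277_at), with 2.14, 1.27, 2.38 and 2.12 in the same order of arrays, was lowest on heterozygous 2 and did not follow the first. It was matched to another transcript accession, and its log2 difference was 0.37 ± 0.44 (standard error).

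Ccl28 had 10.5 and 11.5 on heterozygous 1 and 2, and 10.3 and 13.0 on knockout 1 and 2 (1455577_at). All 4 arrays lay within 1.26-fold as deposited, the narrowest range of the 17 probe sets, and within 1.79-fold after quantile normalization, where 3 other probe sets were narrower. By label, the log2 difference was 0.067 with a 95% interval from −1.07 to 1.20. The other probe sets of Ccl28 were near the array median, with 1.35, 1.63, 1.49 and 1.10 (1450218_at) and with 0.399, 1.04, 0.964 and 1.74 (1450217_at). Their log2 differences were −0.17 ± 0.44 and 0.72 ± 0.51 (standard error), opposite in sign. Over the 4 arrays the main probe sets of Ccl25 and Ccl28 were the most alike pair of members, with a root mean square difference of 0.14 between centred log2 values. Next came Ccl25 and Il18, at 0.20.

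Ccl20, the ligand of CCR6, spread further. Its signal was 3.35 and 5.08 on heterozygous 1 and 2, and 1.21 and 3.57 on knockout 1 and 2 (1422029_at). Knockout 1 alone stood low, 2.78-fold under heterozygous 1 and 2.95-fold under knockout 2, while the other 3 arrays lay within 1.52-fold of each other and the labelled groups overlapped. The log2 difference was −0.87 ± 0.51 (standard error; limma, unadjusted p = 0.115), from 4.22 ± 1.22 to 2.39 ± 1.67 (SD, n = 2 each). Without knockout 1 it was −0.20, and without knockout 2 it was −1.54.

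Ccl6, a CC chemokine of rodents that acts on CCR1 and is also made by myeloid cells, was lower on both arrays labelled knockout at both of its probe sets. The first (1417266_at) had 31.4 and 34.9 on heterozygous 1 and 2, and 15.9 and 24.6 on knockout 1 and 2. The second (1420249_s_at), whose suffix marks probes that can match several transcripts, had 19.0, 19.5, 9.59 and 10.9 in the same order. The heterozygous arrays were close to each other at both, and the knockout arrays below them. Means went from 33.2 ± 2.45 to 20.3 ± 6.16 and from 19.2 ± 0.383 to 10.2 ± 0.911 (SD, n = 2 each). The log2 differences were −0.73 ± 0.56 and −0.89 ± 0.53 (standard error; limma, unadjusted p = 0.214 and 0.119), neither of which passed. Without knockout 1 the difference of the first was −0.42. After quantile normalization the groups overlapped at the first probe set, with 28.3 on heterozygous 2 and 29.6 on knockout 2, and stayed apart at the second.

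Markers of macrophages and dendritic cells, which also make Ccl6, were measured beside it. Of 15 such genes 14 were kept, their summed signal was 131 and 46.1 on the heterozygous arrays and 42.9 and 68.4 on the knockout arrays, and none was listed at 0. The sum was thus highest on heterozygous 1, where Ccl6 as deposited was at about its level on heterozygous 2. After quantile normalization both Ccl6 probe sets were highest on heterozygous 1 too, with 38.3 against 28.3 and 23.3 against 15.9 on heterozygous 2, beside marker sums of 158 and 40.8. Lyz2, a lysozyme of myeloid cells, had 42.0, 18.1, 20.8 and 15.6, and Csf1r, the receptor of macrophage colony-stimulating factor, had 22.7, 3.26, 3.89 and 8.19. The part of these cells in the Ccl6 signal was not tested, and on bulk arrays fewer cells of a type and less RNA per cell cannot be told apart.

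Cxcl16 and Cx3cl1, the membrane-bound pair, differed in which arrays were high. Cxcl16 had 7.95 and 32.3 on heterozygous 1 and 2, and 21.8 and 6.98 on knockout 1 and 2 (1418718_at), and 6.04, 22.1, 13.6 and 5.79 at its second probe set (1449195_s_at). Each labelled group therefore held 1 high and 1 low array, and the SDs were large beside the means, at 20.1 ± 17.2 and 14.4 ± 10.5 for the first (SD, n = 2 each). The log2 differences by label were both −0.37, with standard errors of 0.74 and 0.67. Knockout 1 exceeded heterozygous 1 by 1.42 on the log2 scale while knockout 2 was below heterozygous 2, at −2.16. Without heterozygous 2 the label difference turned to 0.62, and without knockout 2 to 0.43.

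The 2 high arrays for Cxcl16, heterozygous 2 and knockout 1, were those of low Ap1m2 signal. The lower of them exceeded heterozygous 1 by 2.74-fold at the first probe set and 2.25-fold at the second. After quantile normalization these ratios were 1.90 and 1.57, with both low-Ap1m2 arrays still above the others. The same order, low-Ap1m2 arrays above the others, held at 52.7% of all kept probe sets as deposited and at 28.4% after quantile normalization, so it was common on these arrays. Among the 14 members it was met at 3 probe sets in both scalings, the 2 of Cxcl16 and 1450218_at of Ccl28.

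Cx3cl1 (fractalkine), the ligand of CX3CR1, had 12.9 and 22.2 on heterozygous 1 and 2, and 13.5 and 17.0 on knockout 1 and 2 (1415803_at). Heterozygous 2 was the highest array, also at the second probe set (1415804_at), where the values were 5.61, 9.40, 5.43 and 5.51. At the second probe set the knockout arrays lay just below heterozygous 1, so the groups did not overlap, by a small margin, before or after quantile normalization. After that normalization knockout 2 was highest at the first probe set, with 20.2 against 18.0 on heterozygous 2. The log2 differences were −0.16 ± 0.56 and −0.39 ± 0.49 (standard error), and without heterozygous 2 they were 0.23 and −0.034. The remaining probe sets were dim and were not kept, with 0.370, 0.409, 0.252 and 0.543 (1421610_at) and 0.320, 0.049, 0.105 and 0.186 (1441884_x_at).

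Among the cytokines, Il18 had 92.6 and 112 on heterozygous 1 and 2, and 65.0 and 128 on knockout 1 and 2 (1417932_at). As with Ccl25, the arrays labelled knockout were the lowest and the highest, 1.96-fold apart. The means were 102 ± 13.6 and 96.4 ± 44.4 (SD, n = 2 each), a log2 difference of −0.16 with a 95% interval from −1.28 to 0.96. The difference was −0.51 between the replicate 1 arrays and 0.19 between the replicate 2 arrays.

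Il15, which sustains intraepithelial lymphocytes, had 13.3 and 6.87 on heterozygous 1 and 2, and 4.15 and 12.1 on knockout 1 and 2 (1418219_at). Its high and low arrays were the reverse of those of Cxcl16. Heterozygous 2 and knockout 1, both with low Ap1m2, were below the others, and knockout 2 exceeded heterozygous 2 by 1.77-fold and knockout 1 by 2.93-fold. After quantile normalization those ratios were 2.44 and 3.93. The log2 difference by label was −0.41 ± 0.61 (standard error), made of −1.61 between the replicate 1 arrays and 0.79 between the replicate 2 arrays. Without knockout 1 it turned to 0.33, and without heterozygous 1 to 0.053.

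Low-Ap1m2 arrays lay below the others at 2 of the 14 probe sets as deposited, those of Il15 and Ccl25, against 11.7% of all kept probe sets. After quantile normalization this held for 5 of 14, against 24.9%: Il15, the main probe sets of Ccl25 and Ccl28, Il18 and the first probe set of Ccl6. For Ccl28 the normalized signals were 12.8, 9.68, 8.62 and 15.5 in the order heterozygous 1 and 2, knockout 1 and 2, and for Il18 they were 107, 92.9, 55.3 and 148. No group mean or test was made from Ap1m2, which is a measured value and not a label.

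**Figure D3:**
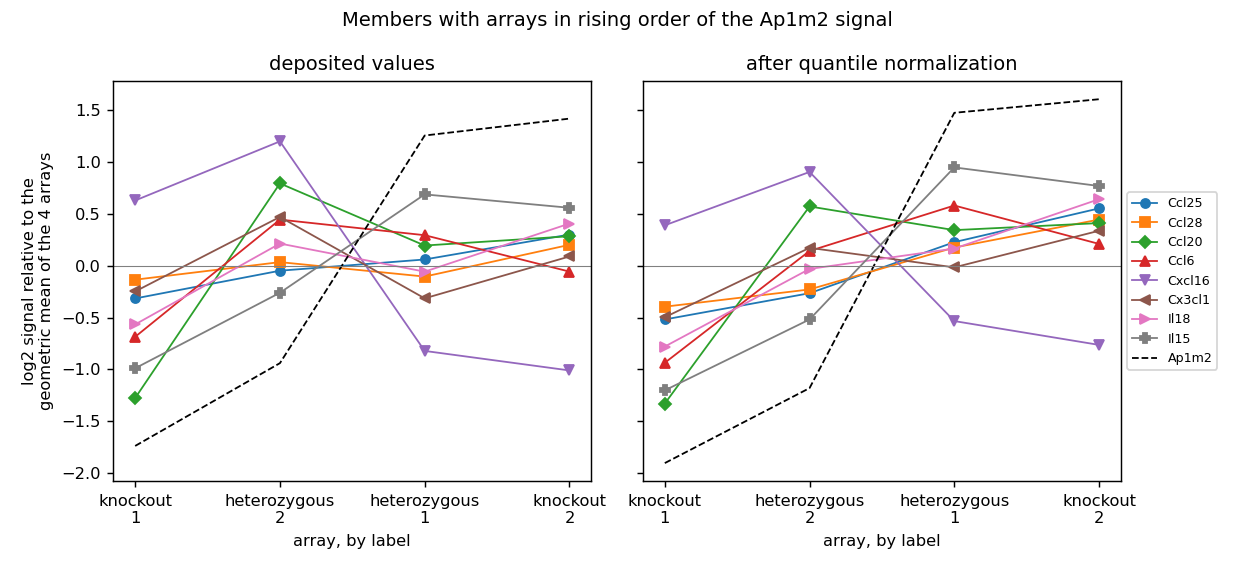
Log2 signal of the highest-mean probe set of 8 members relative to its geometric mean, with arrays in rising order of Ap1m2 (dashed line), as deposited (left) and after quantile normalization (right). Cxcl16 is high on knockout 1 and heterozygous 2 in both panels, while Il15 is low there and 7 of 8 genes are lowest on knockout 1 in the right panel.

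Tslp, the cytokine that acts on dendritic cells and type 2 lymphocytes, was dim. Its probe set (1450004_at) had 0.399 and 0.438 on heterozygous 1 and 2, and 0.040 and 0.029 on knockout 1 and 2. Both arrays labelled knockout were below both labelled heterozygous, yet all 4 values were under the array median and the filter left it out. In the fit without that filter its log2 difference was −1.06 ± 0.30 (standard error; limma, unadjusted p = 0.00852, adjusted p = 0.99997). That fit gave an unadjusted p under 0.05 by limma at 1252 of its 45037 probe sets, and 0 passed the adjusted threshold. The shares of non-overlap given above cover kept probe sets only. No detection calls were used here, so presence of the transcript cannot be stated.

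Knockout 1 was the lowest array for 8 of the 14 member probe sets, against 21.1% of all kept probe sets, and for 9 of 14 after quantile normalization, against 32.7%. By gene the counts were 6 of 8 and 7 of 8, with Cxcl16 outside under both and Cx3cl1 as deposited. Probe sets of a gene share their target, and this count was made after the values were seen. Several other gene groups also set knockout 1 apart. All 11 kept proliferation genes of the crypt were highest there, with a summed signal of 491 against 160 and 254 on heterozygous 1 and 2 and 162 on knockout 2, where 42.6% of all gene representatives were highest on knockout 1. Pcna had 74.0, 121, 197 and 70.4, and Top2a had 13.0, 18.8, 36.5 and 13.2. Of 11 kept genes of absorptive enterocytes 5 were lowest on knockout 1, and 10 after quantile normalization, against 20.7% and 34.7% of all gene representatives, although the abundant Fabp1 (707, 770, 910 and 582) and Apoa1 (782, 733, 758 and 633) were not among the 5. No epithelial marker of 12 was lowest there, and 1 was after quantile normalization. By limma no gene of these lists passed, and none had an unadjusted p under 0.05. The part of these differences in the member signals was not tested.

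The replicate numbers, which follow sex, divided the arrays at 6 of the 14 probe sets. Replicate 2 was higher at 5, one probe set each of Cx3cl1, Il18 and Ccl20 and 2 of Ccl28, against 11.7% of all kept probe sets. It was lower at 1458277_at of Ccl25, against 6.57%. After quantile normalization 3 of the 5 still had both replicate 2 arrays above both replicate 1 arrays, against 12.8%. With 2 arrays of each number, sex and any other difference between the numbers cannot be told apart.

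Genes that receive these signals were measured next. Of 14 receptor genes 9 were kept, 0 passed by limma with adjustment over all kept probe sets (0 at an unadjusted p under 0.05), 5 had higher and 4 lower values by label, and the median log2 difference was 0.0044. Ccr9, the CCL25 receptor, had 3.04 and 0.745 on heterozygous 1 and 2, and 0.725 and 3.12 on knockout 1 and 2, which is high on the arrays of high Ap1m2, with a log2 difference of 0.0044 by label. Il2rb, the IL-15 receptor chain of lymphocytes, had 2.91, 0.764, 0.061 and 2.24. Cxcr6, the CXCL16 receptor, had 2.34, 1.38, 0.688 and 1.96. Both follow the order of Il15 in being lowest on knockout 1 and next lowest on heterozygous 2. Il15ra, which presents IL-15, had 4.25, 3.82, 1.81 and 3.47, low on knockout 1 alone.

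Cx3cr1, the CX3CL1 receptor of macrophages, had 2.23, 0.525, 1.79 and 1.64 on the arrays in the same order, lowest on heterozygous 2, where the signal of its ligand was highest as deposited but not, at the main probe set, after quantile normalization. Ccr6 had 0.768, 1.18, 0.591 and 1.56, and was lowest on knockout 1 like Ccl20 and 20.7% of all gene representatives. Apart from Crlf2 and Il15ra, the kept receptors were dim, with means over the arrays of at most 1.91 beside a filter of 0.983. No detection calls were used, so presence of these transcripts cannot be stated. Ccr1 had 1.67, 0.346, 1.09 and 1.39, and Il7r had 1.11, 0.605, 0.856 and 1.42, both lowest on heterozygous 2. Crlf2, the TSLP receptor chain, had 3.999, 9.30, 7.06 and 3.10. As deposited it was the only kept receptor gene with both low-Ap1m2 arrays above the others, against 56.7% of all gene representatives. The reverse order held at 5 of 9, against 9.06%. After quantile normalization 1 of the 9 had those arrays above, against 3147 of 11326 gene representatives. The reverse order then held at 6 of 9, against 2813 of 11326, a larger share than as deposited. Ccr10, Ccr3, Il18r1 and Il18rap fell below the filter, and Il2rg had no probe set named for it alone.

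**Figure D4:**
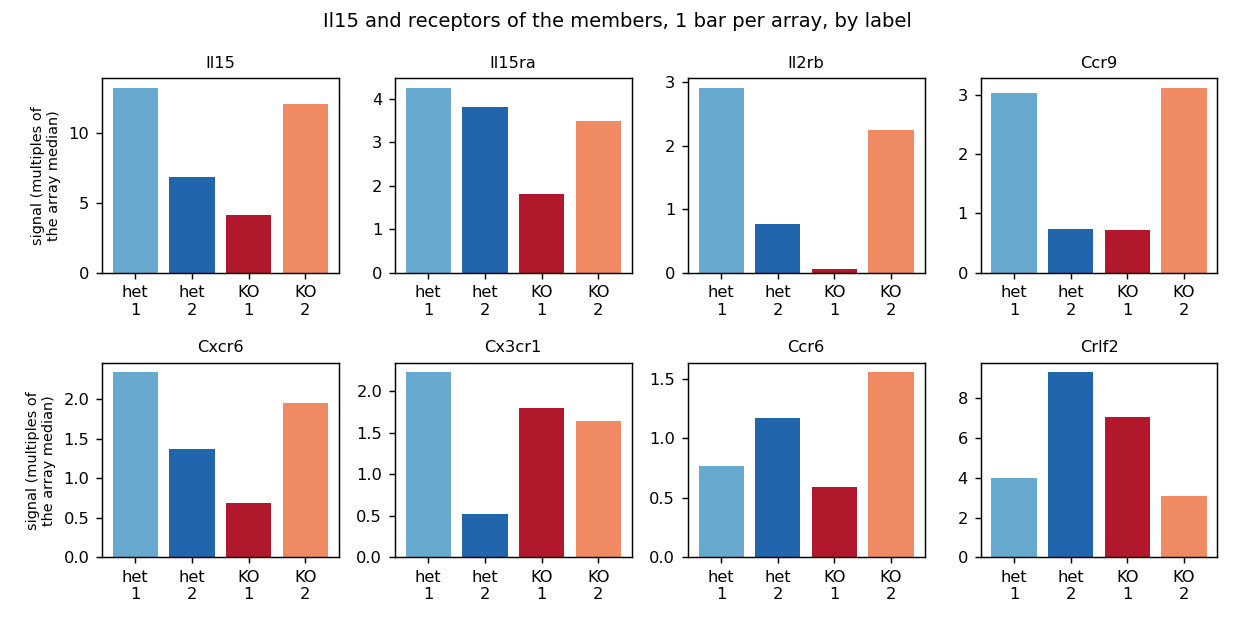
Signal of Il15 and of 7 receptor genes on each array, in multiples of the array median, 1 bar per array by label, with an axis from 0 in every panel. Il15, Il2rb, Ccr9 and Cxcr6 are low on heterozygous 2 and knockout 1, Crlf2 is high on them.

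Markers of the lymphocytes that carry many of these receptors had the same order. Of 18 T cell and intraepithelial lymphocyte genes 14 were kept, with none listed at 0 and none past the threshold by limma. On both low-Ap1m2 arrays 13 of the 14 were below the other arrays, against 9.06% of all gene representatives. After quantile normalization it was again 13, against 2813 of 11326 gene representatives. Their summed signal was 518 and 109 on the heterozygous arrays and 18.0 and 325 on the knockout arrays. Gzma (granzyme A) had 244, 53.8, 5.79 and 149, and the lymphocyte chemokine Ccl5 had 93.2, 13.3, 2.01 and 61.8. The marker sum spanned 28.8-fold from its highest to its lowest array, while Il15 spanned 3.20-fold and Ccl25 1.53-fold. A sum of signals is weighted towards its brightest genes, here Gzma above all, so its range is not that of each marker. The part of these cells in the member and receptor signals was not tested.

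Other secreted signals gave the same lack of calls, with 0 passing by limma and 0 at an unadjusted p under 0.05 in both lists. Of 26 other chemokine genes 11 were kept, 5 higher and 6 lower by label, with a median log2 difference of −0.17. Beside Ccl5, Ccl9 had the highest mean, with 6.98, 8.17, 9.48 and 6.81. Of 26 other cytokine genes 12 were kept, 5 higher and 7 lower (median −0.18). Kitl, the stem cell factor ligand of KIT, had 19.4, 26.5, 43.8 and 14.6, and Tnfsf13b, which encodes the B cell factor BAFF, had 8.73, 8.04, 6.48 and 6.07, lower on both arrays labelled knockout. After quantile normalization Tnfsf13b had 6.83 on heterozygous 2 and 7.08 on knockout 2, and the groups overlapped.

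Genes that process or switch on the members split evenly, 7 higher and 7 lower by label of 14 kept (of 15), with 0 passing by limma and 0 at an unadjusted p under 0.05. Pycard, the adaptor of inflammasomes, had 116, 229, 268 and 162, and Hnf4a, an enterocyte transcription factor, had 154, 214, 249 and 147. The following were picked for their role after their values were seen. Casp1, which cuts the IL-18 precursor, had 42.5, 54.7, 48.0 and 49.5. Adam10, the sheddase of CXCL16 and CX3CL1, had 42.6, 79.4, 58.8 and 40.0, and Adam17 had 7.09, 14.0, 12.0 and 8.86. Both were higher on the low-Ap1m2 arrays as deposited, but not after quantile normalization, with Adam10 at 51.7 on heterozygous 1 and 49.7 on knockout 1 and Adam17 at 10.3 on knockout 2 and 10.1 on knockout 1. Relb, an NF-kB subunit, had 10.7, 12.5, 4.84 and 9.35, lowest on knockout 1 like Ccl20 and 20.7% of all gene representatives. Rela, another NF-kB subunit, did not share this order. It had 13.6, 23.5, 23.9 and 17.7, highest on knockout 1 as deposited. After quantile normalization it was highest on knockout 2, with 21.0 against 20.1 on knockout 1.

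Of 14 genes of lymphocyte adhesion and contact 8 were kept, with 0 passing by limma and 1 at an unadjusted p under 0.05. That gene, picked for its p, was Itgb7, an integrin chain of gut lymphocytes, at 0.661, 0.219, 1.27 and 1.96. Epcam (174, 275, 295 and 184) and Cdh1 (157, 266, 219 and 145), the epithelial ligand of the alpha E beta 7 integrin, had the highest means and were higher on both low-Ap1m2 arrays, before and after quantile normalization. That order was common, at 56.7% of all gene representatives as deposited and 3147 of 11326 after quantile normalization. Of the 8 kept genes 4 had the reverse order in both scalings, against 9.06% of all gene representatives as deposited and 2813 of 11326 after normalization. They were Itgae, Itga4, Cd160 and Btnl2, named for that order. Itgae and Cd160 were already counted among the T cell and intraepithelial lymphocyte genes above, so the 2 lists are not separate observations.

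The remaining marker lists gave no calls. Kept genes lower by label were 8 of 11 for goblet and Paneth cells, 6 of 7 for tuft cells, 5 of 9 for B and plasma cells, 3 of 5 for mast cells and granulocytes, 5 of 9 for stroma and muscle and 4 of 6 for endothelium, against 49.5% of all gene representatives. None passed by limma, and at an unadjusted p under 0.05 there were 2 mast cell genes (Mcpt1 and Mcpt2, lower) and 2 of smooth muscle (Actg2 and Myh11, higher), named for their p. The genes with the highest means were Tff3 and Lyz1 (393 and 323 over the 4 arrays), Alox5ap and Avil (5.90 and 5.16), Igha and Jchain (263 and 78.4), Mcpt2 and Siglecf (3.37 and 2.61), Acta2 and Col3a1 (8.02 and 4.77) and Lyve1 and Eng (2.43 and 1.55).

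The genes whose array pattern was most like that of the main Ccl25 probe set were Vkorc1, Rps4l, Selenow, Cldnd1 and Cracd, at root mean square differences of 0.057 to 0.080 between centred log2 values over the 4 arrays. For Il18 they were Slc51a, Cox7a1, Tkfc, Tsc22d4 and Wbp2, at 0.040 to 0.092. Slc51a, a basolateral bile acid transporter subunit, had 57.2, 71.0, 39.4 and 75.2. Of the 3632 gene representatives compared, 107 came within 0.2 of Ccl25 and 80 within 0.2 of Il18, so 4 arrays do not single out a partner.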

How the data were processed

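The 4 one-colour Affymetrix arrays were deposited as 1 linear intensity per probe set, made with MAS5 per the submitters' processing notes (version not given in the sources used here). Array medians near 1 show a rescaling that the labels do not state. Names came from the platform annotation, with 34945 probe sets named for 1 gene, 932 for more than 1 and 9160 unnamed, and all 17 member probe sets matched RefSeq (GRCm38.p6) by Entrez identifier.

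Values were taken as log2(value + 0.321), the pseudocount being the 25th percentile, so folds of dim probe sets are understated. Probe sets whose mean reached the median of means (0.983) were kept, 22519 in all. The labelled groups were fitted in R 4.3.3 with limma 3.58.1 (intensity trend, no block, Benjamini-Hochberg over all kept probe sets, threshold 0.05). The fit was tested on simulated data. An exact permutation test of 2 against 2 cannot go below p = 0.333 and was not used. Each listed gene is its kept probe set of highest mean. Every probe set of a member and of Ap1m2, every kept receptor, and the 2 genes of highest mean of each of the other lists were named, with exceptions stated, and likeness was measured among genes in the upper 25% of kept means. Members and lists were chosen with earlier results of these data known. Scaling, filter, pseudocount, trend, block and each array were varied. The number of arrays limits precision.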

Additional observations from a re-analysis of the deposited data

How the results depend on the processing

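Under 9 other settings of pseudocount, filter, scaling, variance prior and replicate block, and 1 block of crossed pairs chosen after seeing the data, member differences were recomputed 136 times and 135 kept their sign, none passing the threshold. The exception was the main Ccl25 probe set, 0.036 after quantile normalization against −0.014, a value near 0. Only the settings of pseudocount and scaling could change a member difference. Those of filter, variance prior and block left it the same by construction, so the signs kept under them were fixed in advance. Counts of probe sets passing by limma were 0 under these settings except 1 with the brightest 25% of probe sets, which was no member. With the replicate number as a block the count was 0, and the member differences were the same by construction. The deviations of same-numbered arrays correlated at −0.51, so by this measure they did not deviate together, although arrays of one number share a sex, and the crossed pairs as a block also gave 0.

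With each array left out in turn, where the lone array is assumed to vary like the others, the count ranged from 0 to 240 (24 without knockout 1, 240 without knockout 2) and included no member. The sign turned in 14 of 56 member values. The ranges were −0.32 to 0.29 and 0.060 to 0.69 for Ccl25 in the order given above, −0.097 to 0.23, −0.34 to 0.0030 and 0.26 to 1.18 for Ccl28, −1.54 to −0.20 for Ccl20, −1.04 to −0.42 and −0.98 to −0.80 for Ccl6, −1.36 to 0.62 and −1.28 to 0.54 for Cxcl16, −0.54 to 0.23 and −0.75 to −0.034 for Cx3cl1, −0.64 to 0.33 for Il18 and −1.15 to 0.33 for Il15. The causes were not tested. No alternative was left out, but the brightest 25% held no value for Ccl20 and 3 dim probe sets of Ccl25 and Ccl28.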
